A study of Mus musculus with 16 samples.

Results

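The comparison described here sets C3H10T1/2 cells that express histone H3.3 with both G34W and K27R on the same tail (H3.3 G34W K27R, 2 libraries) against cells that express H3.3 with G34W alone (H3.3 G34W, 2 libraries). It covers every gene with a mean of at least 10 normalised expected counts over these 4 libraries, which kept 12673 of the 20325 genes in the table. C3H10T1/2 is a mouse fibroblast-like line used as a model of mesenchymal progenitors. In all groups of the series, cells took up a histone H3 transgene by viral transduction over 2 days. Puromycin, at 1.5 µg/ml, then selected the transduced cells over 4 days. All groups keep their own H3 genes, so the transgene product is 1 source of H3 among several. Further groups used are the double mutant H3.3 G34W K36R, H3.3 with K27R alone, and wild-type H3.3, with 2 libraries each out of 16 in the series. H3.3 G34R, H3.1 G34W and wild-type H3.1, also with 2 libraries each, enter the joint fit of all 8 groups and the comparisons with all other libraries. Nothing in the labels tells separate cultures from repeat libraries within a group. The p-values therefore reflect the spread between 2 such libraries, pooled over the groups of the joint fit, and that may be technical variation. They do not measure the spread within the compared groups alone.

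Lysine residues on the H3 tail are methylated by dedicated enzymes. Polycomb repressive complex PRC2 methylates the lysine that K27R replaces, a mark found at silenced developmental genes, and an arginine in that place cannot carry it. The lysine that K36R replaces is methylated over transcribed genes by SETD2 and the NSD enzymes and normally hinders PRC2 on the same tail, and the bulky residue of G34W, the change found in giant cell tumour of bone, lowers that methylation on the tail that carries it. The comparison asks how the transcriptome of G34W cells differs when the mutant tail also has arginine in place of the lysine that PRC2 methylates. Other effects of that replacement cannot be told apart from the loss of methylation.

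Depth was an estimated 28.79 and 32.64 M reads in the G34W K27R libraries and 33.82 and 30.75 M reads in the G34W libraries, from the value that 1 read takes in each library. Replicates differed very unequally. The G34W K27R libraries differed by more than 2-fold in 118 genes, and the G34W libraries in 2199 genes, 624 of them by more than 4-fold. The H3.1 G34W and wild-type H3.1 libraries, whose spread enters the same fit, differed by more than 2-fold in 1867 and 1041 genes. Those of no other group did so in more than 233. The wild-type H3.3 libraries were counted as 1 sample: over 2764 genes with whole reads in both they differed by less than the sampling noise, with a chi-square of 0.958 per degree of freedom. Over all 12462 genes compared they differed by more than it, with a value of 1.23. Part of the G34W spread lay in differentiation genes: Adipoq, the fat-cell hormone adiponectin, had 1358 and 1288 expected counts in the G34W K27R libraries, against 4082 and 7.65 in the G34W libraries, and Col2a1, the main cartilage collagen, had 5173 and 5547, against 4377 and 69620. Neither was called (adjusted p = 0.369 and 0.232, limma with Benjamini-Hochberg adjustment over all genes tested), and without G34W replicate 2 both turned direction, Adipoq to a log2 fold change of -1.62 (adjusted p = 0.0178) and Col2a1 to 0.29 (adjusted p = 0.603). Of 12 mesenchymal markers, among them Thy1, Ly6a, Cd44, Eng and Pdgfra, 11 were tested and none was called, and Nt5e did not exceed 6.57. In a longer list of mesenchymal surface markers 15 were tested, of which Alcam was higher (adjusted p = 0.0464) and Mcam (0.0464) and Cd34 (0.0201) were lower. Of all genes tested, 9.46% were higher and 12.3% lower. The call of Alcam was lost without any of 13 libraries and that of Mcam without any of 12. Of defining markers of other cell types, the leukocyte marker Ptprc, the epithelial keratin Krt18 and the muscle factor Myod1 were at 0 in all 4 libraries. The summed level of 6 macrophage and blood markers was 283 and 287 in the G34W K27R libraries and 263 and 167 in the G34W libraries. Summed levels of other cell types' markers were lower for skeletal muscle, with 76.5 and 92.4 against 412 and 422, and for neural cells, with 103 and 115 against 559 and 719. They overlapped for endothelial markers, with 1403 and 1429 against 885 and 3254, and were 23.3 and 29.2 against 44.1 and 351 for epithelial ones. Of these, Acta1, Des, Tubb3, Gfap and Cdh5 were called lower, and their part in the results was not tested. Means were under 10 in both groups for 4 of the 6 skeletal muscle markers, so that sum rests on Acta1 and Des.

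Across all genes tested, 1199 genes were higher and 1560 lower in G34W K27R than in G34W at an adjusted p under 0.05, which is 9.46% and 12.3% of the genes tested and 21.8% together (limma on log2(value + 1), all 8 groups fitted at once, two-sided). In each of these 2759 genes the libraries of the groups did not overlap, but this was so in 62.1% of all genes tested, with G34W K27R higher in 30.3% and lower in 31.9%. By size, 637 genes were called with a rise and 1050 with a fall of at least 2-fold, 377 and 534 at 4-fold, and 150 and 98 at 16-fold. The median log2 fold change of all genes tested was -0.02. Without replicate 1 or replicate 2 of G34W K27R, which leaves that group 1 library, 1323 genes were called in each case, and with each of 5 close pairs of libraries in the series counted as 1 sample 343 were called, 170 higher and 173 lower.

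**Figure D1:**
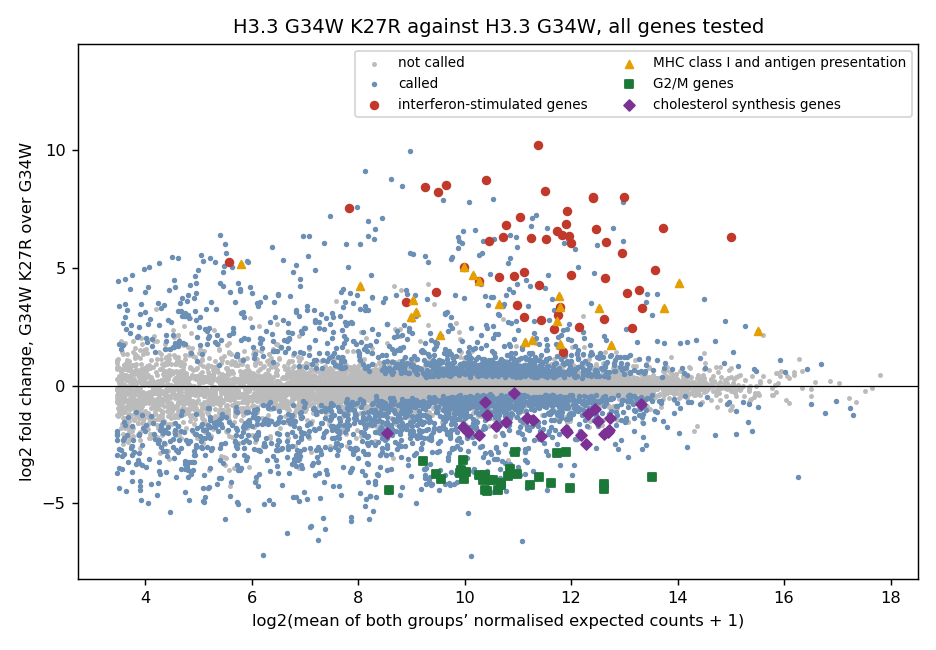
Log2 fold change of H3.3 G34W K27R over H3.3 G34W (vertical axis) against the log2 of the mean level of both groups (horizontal axis, normalised expected counts plus 1) for the 12673 genes tested; blue points were called. Interferon-stimulated genes (red) and genes of MHC class I presentation (orange) lie above 0, and G2/M genes (green) and genes of cholesterol synthesis (purple) lie below it.

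Of the 40 gene lists, interferon-stimulated genes had the highest median rise. These genes are switched on by the transcription factor complex ISGF3 after type I interferon signalling and encode antiviral proteins and chemokines. Of 55 listed members 52 were tested, 52 were higher in G34W K27R, against 9.46% of all genes tested, and 0 were lower; their median log2 fold change was 5.84, against -0.02 for all genes tested. Because a gene can enter the test through high values in G34W K27R alone, the members that also reached a mean of 10 in G34W are given: there were 46, and 46 of them were higher. With close pairs counted as 1 sample, 46 of the 52 were called. In both G34W K27R libraries all 52 exceeded each of the 14 other libraries of the series, which was so for 9.8% of all genes tested.

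Mx1, a GTPase that blocks influenza viruses, had 3555 and 3371 expected counts in the G34W K27R libraries, against 15.6 and 55.1 in the G34W libraries. The groups lay far apart, and the log2 fold change was 6.83 ± 0.46 (SE; adjusted p = 7.02e-06), and between 5.95 and 7.71 with 1 library of the series left out in turn. Isg15, a ubiquitin-like modifier, had 11127 and 11380 expected counts in G34W K27R, against 85.4 and 148 in G34W, a log2 fold change of 6.63 ± 0.80 (adjusted p = 0.000231). Ifit1, which binds foreign RNA caps, had 27474 and 26228 expected counts in G34W K27R, against 219 and 298 in G34W (log2 fold change 6.71 ± 0.78, adjusted p = 0.00019). Both were thus among the abundant transcripts of the mutant cells and low in G34W. Rsad2, the antiviral enzyme viperin, had 5421 and 5259 expected counts in G34W K27R, against 0 and 19.7 in G34W. Its fitted rise was the largest in the interferon-stimulated list, 10.20 ± 1.01 on the log2 scale (adjusted p = 7.38e-05), but the size turned on the 2 G34W libraries and lay between 8.01 and 12.38 with 1 library left out in turn.

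The naming rule gave the 15 largest increases with no overlap between libraries. Beside Rsad2 they were the nucleotide kinase Cmpk2, the nucleic acid sensor Zbp1, the oligoadenylate synthetase family members Oas1g and Oasl2, the interferon-inducible genes Ifi44, H28, Trim30d, Gbp8, Tgtp1 and Tgtp2, and the chemokines Cxcl9, Cxcl10, Cxcl11 and Ccl5. The 3 CXC chemokines, ligands of the lymphocyte receptor Cxcr3, rose together: Cxcl10 had 2744 and 2656 expected counts in G34W K27R, against 1.88 and 13.1 in G34W, and Cxcl9 had 2137 and 2151, against 13.1 and 5.47. Cxcl11 had 576 and 543 expected counts in G34W K27R and 0 in both G34W libraries, so that it was at least 184-fold higher when set against a floor of 3 reads per library. Ccl5, which attracts T cells and monocytes, had 1300 and 1136 expected counts in G34W K27R, against 1.88 and 3.28 in G34W, a ratio of 480 with a 95% counting interval of 206 to 1480 that covers counting error only. Tgtp1 with Tgtp2, Oas1g, Gbp8 and Trim30d belong to families of near-identical copies whose reads the counting may have split, so their single values are uncertain. Without 1 G34W library or the other, the fitted fold moved by more than 1.5 times in all of these genes except Cxcl9, Cxcl11 and Ccl5: for Zbp1 the log2 fold change lay between 6.78 and 9.77 and for Oasl2 between 6.70 and 9.33, and none of the 15 calls was lost.

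The genes of the pathway itself were measured from ligand to transcription factor. Among genes whose symbol starts with Ifn, no ligand gene exceeded 2.92 in any of the 16 libraries. Ligand genes under other symbols were not examined. Ifnb1, interferon beta, had 1.11 and 2.92 in G34W K27R and 0 in both G34W libraries, a level at which no difference can be detected. The receptor chains differed little. Ifnar1 had 4352 and 4329 expected counts in G34W K27R, against 4375 and 4147 in G34W (log2 fold change 0.03 ± 0.12, adjusted p = 0.908). Ifnar2, Ifngr1 and Ifngr2 had adjusted p of 0.731, 0.47 and 0.11. Transcription factor genes of the pathway were higher. Irf9, a subunit of ISGF3, had 5506 and 5540 expected counts in G34W K27R, against 1136 and 952 in G34W (log2 fold change 2.41 ± 0.29, adjusted p = 0.000244). Irf7, the factor that amplifies interferon induction, had 5832 and 5810 expected counts in G34W K27R, against 50.7 and 119 in G34W (log2 fold change 6.21 ± 0.78, adjusted p = 0.000324). The cytosolic RNA sensor gene Ifih1 had 3388 and 3289, against 28.2 and 61.2 (log2 fold change 6.29 ± 0.41, adjusted p = 5.72e-06).

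Promoters of these genes are known for the interferon-stimulated response element, the site that ISGF3 binds. Reference promoters of 3 of the genes that rose are shown from 200 bases before the start of the gene to the base before it, 5′ to 3′ on the strand of the gene, from RefSeq on GRCm38.p6. Capitals mark each match on either strand to its core, searched as GAAA, any 2 bases and GAAA again, with overlapping matches joined.
Rsad2 (chr12:26456453-26456652, minus strand): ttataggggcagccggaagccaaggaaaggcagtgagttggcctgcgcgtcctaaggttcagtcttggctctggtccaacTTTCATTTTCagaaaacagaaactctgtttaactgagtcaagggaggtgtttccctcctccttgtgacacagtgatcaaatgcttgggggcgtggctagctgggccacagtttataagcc
Isg15 (chr4:156200819-156201018, minus strand): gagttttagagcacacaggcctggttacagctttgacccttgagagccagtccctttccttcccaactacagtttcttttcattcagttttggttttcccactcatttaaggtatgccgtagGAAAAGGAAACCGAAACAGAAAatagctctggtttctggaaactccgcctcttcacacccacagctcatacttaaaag
Ifit1 (chr19:34640689-34640888, plus strand): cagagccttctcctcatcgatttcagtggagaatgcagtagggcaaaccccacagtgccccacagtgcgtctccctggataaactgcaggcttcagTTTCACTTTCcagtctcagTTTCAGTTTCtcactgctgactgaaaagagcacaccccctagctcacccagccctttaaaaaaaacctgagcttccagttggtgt
The match occurs in 22 of the 38 tested interferon-stimulated genes for which RefSeq promoters (250 bases before to 50 after the start) were given, which is 57.9%. It occurs in 107 of 965 genes called higher (11.1%), in 37 of 1185 genes called lower (3.12%) and in 3.82% of all genes tested with a promoter; among all 32851 promoters of that table the share is 3.44%. Each promoter shown holds a match, whereas the same windows of Cxcl10 and Oasl2, which also rose, held none. A match describes the letters of the window and is not a measured site.

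Genes of MHC class I antigen presentation, which show peptides to T cells, rose as a whole. Of 22 listed members 21 were tested. Of these 21 were higher and 0 lower, against 9.46% and 12.3% of all genes tested, with a median log2 fold change of 3.28. A mean of 10 in G34W was also reached by 20 of them, and 20 of these were higher. H2-K1, a class I heavy chain, had 31394 and 31873 expected counts in G34W K27R, against 1832 and 1332 in G34W (log2 fold change 4.34 ± 0.27, adjusted p = 4.64e-06), although heavy-chain genes are near copies of each other and may share reads. B2m, the invariant light chain, had 79047 and 76779 expected counts in G34W K27R, against 19252 and 12854 in G34W (log2 fold change 2.31 ± 0.22, adjusted p = 6.48e-05). Nlrc5, the transactivator of the class I genes, had 2242 and 2133 expected counts in G34W K27R, against 103 and 68.9 in G34W. Its log2 fold change of 4.68 ± 0.31 (adjusted p = 6.16e-06) was close to those of the immunoproteasome subunits Psmb8 (5.03 ± 0.56) and Psmb9 (4.46 ± 0.69). With close pairs counted as 1 sample, 14 of the 21 were called.

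Inflammatory genes under NF-kB moved less uniformly, with 9 of 26 tested members higher and 4 lower, against 9.46% and 12.3% of all genes tested, and a median of 0.37; 5 were higher without either G34W K27R library. The monocyte chemokines stood out: Ccl2 had 13934 and 13985 expected counts in G34W K27R, against 138 and 133 in G34W, and Ccl7 had 2441 and 2578, against 72.3 and 35. The libraries of each group were close for Ccl2, whose log2 fold change was 6.67 ± 0.37 (adjusted p = 2.92e-06); that of Ccl7 was 5.61 ± 0.35 (adjusted p = 4.69e-06). Both were also abundant in wild-type H3.3 cells, at 7077 and 1090 on average. Ptgs2, the inducible cyclooxygenase, had 3631 and 3447, against 100.4 and 511, and ranged between 2.79 and 5.12 on the log2 scale with 1 library left out in turn. Serpina3f, a serine protease inhibitor, had 628 and 638 expected counts in G34W K27R, against 8.35 and 3.27 in G34W (log2 fold change 6.65 ± 0.38, adjusted p = 2.92e-06), while its neighbour in the family Serpina3g had 33.5 and 17.7, against 4.69 and 9.85, with an adjusted p of 0.039 that was lost without any of 7 libraries (highest adjusted p 0.266). The metalloreductase Steap4 was lower, at 18.9 and 22.4, against 281 and 121 (log2 fold change -3.11 ± 0.47, adjusted p = 0.00109).

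**Figure D2:**
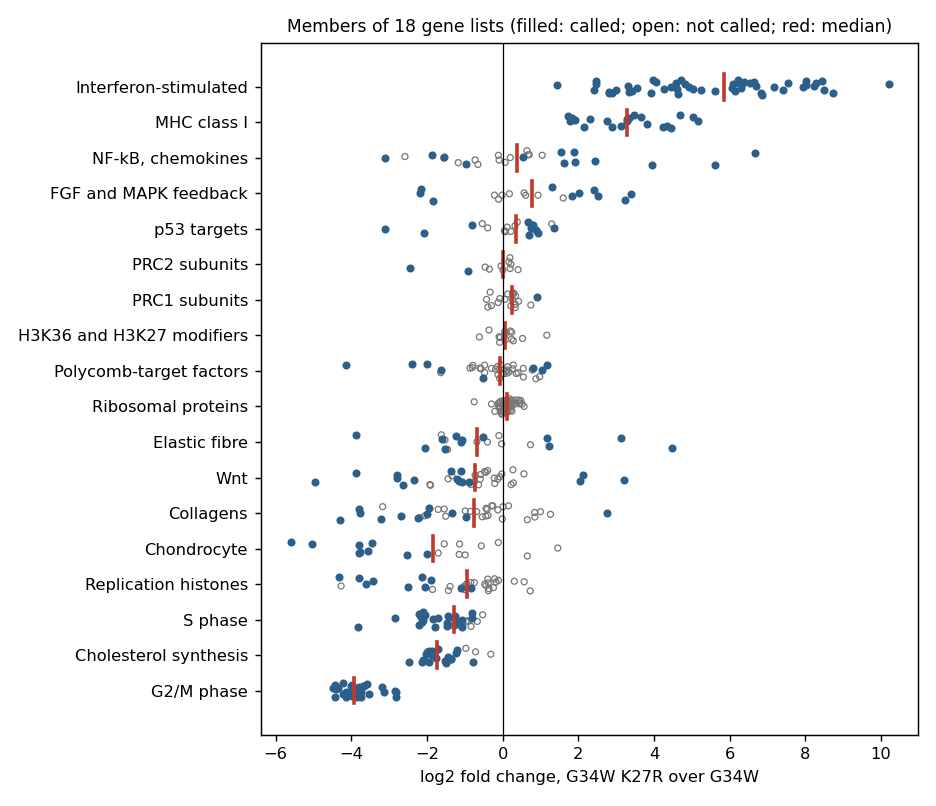
Log2 fold change of H3.3 G34W K27R over H3.3 G34W (horizontal axis) for the tested members of 18 gene lists; filled points were called, open points were not, and red bars are list medians. Interferon-stimulated and MHC class I genes lie above 0 and G2/M, S phase and cholesterol genes below it, while Polycomb subunits and ribosomal protein genes centre near 0.

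Genes of cell division fell. All 32 listed genes of G2 and mitosis were tested, 32 were lower, against 12.3% of all genes tested, and 0 were higher; their median log2 fold change was -3.92 and the ratios of group means lay between 7.34-fold and 24.5-fold lower. The 32 stayed called without each library in turn, and 30 were called with close pairs counted as 1 sample. In both G34W K27R libraries all 32 lay below each of the 14 other libraries of the series, as did 10.6% of all genes tested. Ccnb2, a cyclin that drives entry into mitosis, had 112 and 114 expected counts in G34W K27R, against 1988 and 3240 in G34W (log2 fold change -4.48 ± 0.29, adjusted p = 5.68e-06). Kif23, a motor needed for cytokinesis, had 105 and 121, against 1944 and 3169 (log2 fold change -4.45 ± 0.34, adjusted p = 1.44e-05). Mki67, the proliferation marker Ki-67, had 540.1 and 505 expected counts in G34W K27R, against 7037 and 17157 in G34W (log2 fold change -4.39 ± 0.55, adjusted p = 0.000313, and -5.04 to -3.75 with 1 library left out). The topoisomerase Top2a had 1476 and 1531, against 18637 and 25573 (log2 fold change -3.86 ± 0.34). The kinetochore protein gene Cenpf and the mitotic phosphatase gene Cdc25c fell by 4.44 each. For Cdc25c the log2 fold change lay between -5.08 and -3.79 with 1 library left out in turn. In bulk RNA, fewer cells in a phase and less RNA per cell cannot be told apart.

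Promoters of many G2/M genes are known to carry CCAAT boxes for NF-Y and a cell cycle homology region, TTTGAA. Those of Ccnb2 and Cdc20, the activator of the anaphase-promoting complex, are shown as above, with matches to CCAAT and TTTGAA on either strand in capitals.
Ccnb2 (chr9:70421555-70421754, minus strand): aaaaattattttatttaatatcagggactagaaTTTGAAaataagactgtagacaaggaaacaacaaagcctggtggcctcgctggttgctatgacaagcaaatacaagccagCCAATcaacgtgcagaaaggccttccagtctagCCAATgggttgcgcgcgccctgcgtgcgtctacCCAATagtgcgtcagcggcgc
Cdc20 (chr4:118437344-118437543, minus strand): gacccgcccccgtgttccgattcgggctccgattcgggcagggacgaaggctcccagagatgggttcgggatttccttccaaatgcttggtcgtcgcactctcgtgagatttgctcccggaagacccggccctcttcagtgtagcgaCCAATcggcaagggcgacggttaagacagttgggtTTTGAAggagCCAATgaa
Both motifs occur in 17 of the 28 G2/M genes with a RefSeq promoter (60.7%), against 133 of 1185 genes called lower (11.2%), 51 of 965 genes called higher (5.28%) and 6.04% of all genes tested with a promoter; the share among all promoters of the table is 6.95%. The motifs are short and CCAAT alone occurs in 37.4% of those promoters. Both promoters shown hold each motif, whereas the same windows of the mitotic genes Plk1 and Ccnb1 held CCAAT but no TTTGAA. For Cdc20 the expression values were 276 and 289 in G34W K27R, against 2540 and 4300 in G34W (log2 fold change -3.54 ± 0.31, adjusted p = 3.36e-05).

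Genes of S phase fell less. All 32 tested had a negative fold change, with a median of -1.29 on the log2 scale. Of these 23 were called lower and 0 higher, against 12.3% and 9.46% of all genes tested. This count was fragile: it was 5 and 4 without replicate 1 or 2 of G34W K27R, 5 without G34W replicate 2, and 1 with close pairs counted as 1 sample. Tk1, thymidine kinase, had 337 and 329 expected counts in G34W K27R, against 3430 and 6427 in G34W (log2 fold change -3.81 ± 0.46, adjusted p = 0.000239) and stayed called without each library. Rrm2, a ribonucleotide reductase subunit, had 438 and 457, against 2048 and 5080 (log2 fold change -2.85 ± 0.58, adjusted p = 0.00574). Of 33 tested replication-dependent histone genes 10 were lower and 0 higher, against 12.3% and 9.46% of all genes tested. Fewer were lower without either G34W K27R library, and more without G34W replicate 2. Of the 33, 25 reached a mean of 10 in G34W K27R, and 5 of these were lower. Among the 10 was Hist1h3h with 515 and 497, against 4560 and 10956; these genes are near copies of each other, and their messages mostly lack poly(A) tails.

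Inhibitors of cyclin-dependent kinases moved in both directions. The neighbours Cdkn2a and Cdkn2b, textbook PRC2 targets that restrain the G1 to S transition, rose: Cdkn2a had 427 and 456 expected counts in G34W K27R, against 37.5 and 39.4 in G34W (log2 fold change 3.49 ± 0.31, adjusted p = 3.49e-05). Cdkn2b had 759 and 797, against 61.9 and 44.8 (log2 fold change 3.86 ± 0.47, adjusted p = 0.000273). In wild-type H3.3 cells both were at or near 0, with means of 0.484 and 0, and in K27R cells they lay between G34W K27R and G34W, with 115 and 69.8 for Cdkn2a and 146 and 135 for Cdkn2b. Cdkn2d and Cdkn2c fell, at 302 and 317 against 1408 and 1700 and at 443 and 491 against 1140 and 1246 (log2 fold changes -2.32 ± 0.24 and -1.35 ± 0.16). Cdkn1a, the p53 target p21, had 11081 and 11556, against 7768 and 6530, with an adjusted p of 0.0453 that rose to at most 0.199 when 1 of 9 libraries was left out. Of 20 tested p53 targets 7 were higher and 3 lower, against 9.46% and 12.3% of all genes tested. Most of the 7 calls were lost without either G34W K27R library. Mdm2, the ubiquitin ligase that degrades p53, had 6958 and 6826, against 2740 and 2630 (log2 fold change 1.36 ± 0.10, adjusted p = 1.43e-05).

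**Figure D3:**
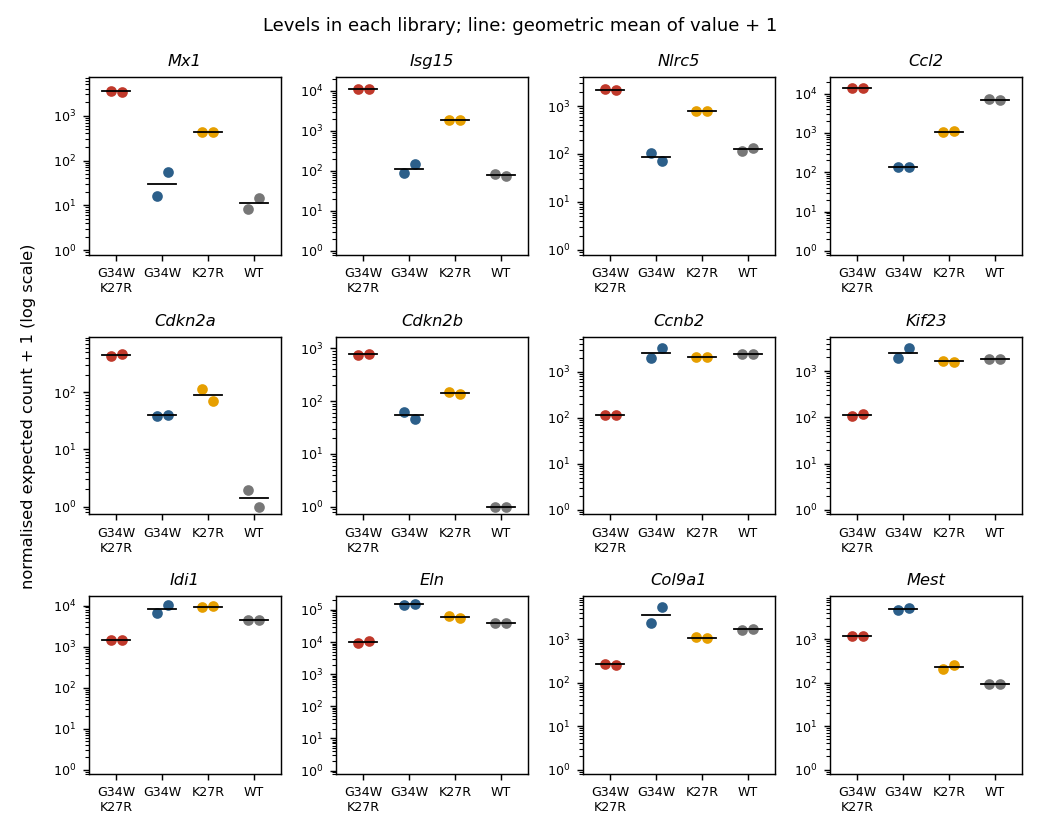
Normalised expected counts plus 1 (vertical axes, log scale) of 12 genes in each of the 2 libraries of H3.3 G34W K27R, H3.3 G34W, H3.3 K27R and wild-type H3.3; lines are geometric means. The G34W K27R libraries lie above the G34W libraries for Mx1, Isg15, Nlrc5, Ccl2, Cdkn2a and Cdkn2b and below them for Ccnb2, Kif23, Idi1, Eln, Col9a1 and Mest.

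Genes of cholesterol synthesis and other targets of the sterol sensor SREBP were lower. Of 26 listed 24 were tested, and 20 were lower and 0 higher, against 12.3% and 9.46% of all genes tested. The median log2 fold change was -1.74, and all 24 fold changes were negative. Idi1, which makes the isoprenoid building block dimethylallyl diphosphate, had 1483 and 1478 expected counts in G34W K27R, against 6777 and 10211 in G34W (log2 fold change -2.49 ± 0.29, adjusted p = 0.000212). Nsdhl, a demethylating enzyme of the late pathway, had 997 and 1012, against 3623 and 5381 (log2 fold change -2.14 ± 0.31, adjusted p = 0.00086). Fdps, farnesyl diphosphate synthase, had 1667 and 1713, against 5134 and 10113 (log2 fold change -2.09 ± 0.37). Without 1 library at a time 14 to 22 members were called, and with close pairs counted as 1 sample 1 was called.

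Few genes of the machinery that writes and reads the modifications at issue were called. Of 11 PRC2 subunit genes tested 2 were lower and 0 higher, against 12.3% and 9.46% of all genes tested. Of 19 PRC1 genes 1, Pcgf5, was higher (adjusted p = 0.04), a call lost without any of 9 libraries (up to 0.205), and of 15 enzymes that write or erase methyl groups on the lysines discussed above 0 were called. For those 15, limma gave 0 genes at an unadjusted p under 0.05 as well, with a median log2 fold change of 0.07 and a range of -0.62 to 1.17. Phf19, an accessory PRC2 subunit, had 56.6 and 59.4 expected counts in G34W K27R, against 249.9 and 412 in G34W (log2 fold change -2.45 ± 0.39, adjusted p = 0.0014). Ezh2, the catalytic subunit, had 902 and 822, against 1304 and 2004 (log2 fold change -0.91 ± 0.24, adjusted p = 0.0215), a call lost without G34W replicate 2 or without either G34W K27R library (adjusted p up to 0.13). The H3.3 gene H3f3b had 22617 and 22994, against 42967 and 35895 (log2 fold change -0.78 ± 0.16, adjusted p = 0.00507). H3f3a had 11943 and 12484, against 24461 and 13983 (adjusted p = 0.11). How reads of the transgene were assigned is not given in the sources used here, so these levels do not check its expression. Daxx, the chaperone that deposits H3.3 in heterochromatin, was higher, at 2509 and 2656 against 1104 and 1184 (log2 fold change 1.17 ± 0.11, adjusted p = 3.94e-05). Asf1b, a chaperone of dividing cells, was lower, at 209.6 and 205 against 783 and 2285 (log2 fold change -2.68 ± 0.50, adjusted p = 0.00345).

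Developmental transcription factors that are typical Polycomb targets did not move together. Of 64 listed 38 were tested, 3 were higher and 5 lower, near the 9.46% and 12.3% of all genes tested, with a median of -0.06. Fewer were lower without either G34W K27R library. Of 10 tested Hox genes 2, Hoxa3 and Hoxa4, were lower and 0 higher, against 12.3% and 9.46% of all genes tested. Both calls were lost without either G34W K27R library, and that of Hoxa3 without G34W replicate 2 too. The organizer factor Gsc had 96.5 and 158 expected counts in G34W K27R, against 639 and 379 in G34W (log2 fold change -1.99 ± 0.43; adjusted p 0.0851 without G34W K27R replicate 1). Among 14 tested imprinted genes, which are expressed from a single parental copy, 2 were lower, against 12.3% of all genes tested. These were Mest and Dlk1, the second with an adjusted p of 0.049 that was lost without any of 11 libraries. Mest had 1144 and 1200 expected counts in G34W K27R, against 4590 and 5234 in G34W (log2 fold change -2.06 ± 0.40, adjusted p = 0.00445), and 90.5 on average in wild-type H3.3. Igf2 had 661 and 600.4, against 1250 and 212, and was not called (adjusted p = 0.825); its direction turned without G34W replicate 2, to -0.99 on the log2 scale.

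Matrix genes changed in both directions around a few very abundant transcripts. Eln, the elastin precursor, had 9424 and 10563 expected counts in G34W K27R, against 141239 and 153881 in G34W, a log2 fold change of -3.88 ± 0.33 (adjusted p = 2.67e-05). Fbln5, which guides elastic fibre assembly, was lower too, at 13832 and 13317 against 52755 and 60992 (log2 fold change -2.06 ± 0.15, adjusted p = 8.92e-06). Other elastic fibre genes rose: Efemp1 had 4525 and 4231, against 224 and 168 (log2 fold change 4.49 ± 0.31, adjusted p = 8.02e-06). Ltbp4, a TGF-beta binding protein of the fibre, had 1429 and 1479, against 139 and 195 (log2 fold change 3.14 ± 0.47). In all, 4 of the 21 tested elastic fibre genes were higher and 8 lower, against 9.46% and 12.3% of all genes tested. Fewer were lower without either G34W K27R library. The proteoglycan Dcn and the phosphoprotein Spp1 rose, at 22704 and 23569 against 2701 and 882 and at 21420 and 19630 against 1455 and 1333 (log2 fold changes 3.90 ± 0.40 and 3.88 ± 0.33, adjusted p = 9.08e-05 and 2.86e-05). Without G34W replicate 1 the log2 fold change of Dcn was 4.71, a fold over 1.5 times larger, and without G34W replicate 2 it was smaller by as much.

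Of 36 tested collagen chains 10 were lower and 1 higher, against 12.3% and 9.46% of all genes tested, with a median of -0.77; 6 were lower without either G34W K27R library and 18 without G34W replicate 1. Col9a1, a chain of the collagen that coats cartilage fibrils, had 273 and 249 expected counts in G34W K27R, against 2372 and 5538 in G34W (log2 fold change -3.79 ± 0.37, adjusted p = 7.18e-05, and -4.40 to -3.18 with 1 library left out). Col8a2 had 139.7 and 123, against 1390 and 4891 (log2 fold change -4.30 ± 0.56, and -5.21 to -3.39 with 1 library left out). Of 18 tested chondrocyte genes 9 were lower and 0 higher, against 12.3% and 9.46% of all genes tested, with a median of -1.85. Fewer were called with close pairs as 1 sample. Only 14 of the 18 reached a mean of 10 in G34W K27R, and 5 of these were lower. The summed level of 6 cartilage markers was 13970 and 14956 in G34W K27R, against 15224 and 86679 in G34W, and the part of this spread in the result was not tested. Matn3, a cartilage matrix adaptor, had 3.33 and 8.76, against 320.0 and 312 (log2 fold change -5.61 ± 0.35, adjusted p = 4.61e-06). Comp had 63.2 and 56.4, against 360.4 and 340.0 (log2 fold change -2.53 ± 0.26, adjusted p = 7.97e-05). Sox9, the chondrocyte master factor, had 8461 and 9103, against 8110 and 11154, and was not called (log2 fold change -0.12 ± 0.15, adjusted p = 0.647, and 0.11 without G34W replicate 2).

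Genes of other mesenchymal fates showed no common direction. Of 16 tested osteoblast genes 2 were higher and 3 lower, near the 9.46% and 12.3% of all genes tested. Dmp1, a mineralisation protein of osteocytes, had 577 and 557 expected counts in G34W K27R, against 63.8 and 26.2 in G34W (log2 fold change 3.76 ± 0.64, adjusted p = 0.00205, and 3.13 to 4.38 with 1 library left out). The phosphatase Alpl fell, at 2.22 and 6.81, against 57.3 and 96.2 (log2 fold change -3.91 ± 0.47, adjusted p = 0.000214, and -4.55 to -3.27 with 1 library left out). Of 23 tested adipocyte genes 0 were higher and 2 lower, against 9.46% and 12.3% of all genes tested. For several of these genes the G34W libraries lay far apart, which limits what the test can call. Plin1 had 453 and 501, against 825 and 0, and Cidec had 217 and 219, against 329 and 0. The lipogenic enzyme gene Fasn was lower, a call lost without G34W replicate 1 or either G34W K27R library. The adipogenic factor gene Cebpa, also lower, had 806 and 849, against 1953 and 1667 (log2 fold change -1.12 ± 0.20). Among 22 tested smooth muscle and myofibroblast genes 4 were higher and 5 lower, against 9.46% and 12.3% of all genes tested. Fewer were lower without either G34W K27R library. Both directions met within the contractile apparatus. Cnn1 had 2.22 and 2.92, against 415 and 127 (log2 fold change -6.02 ± 0.59, adjusted p = 6.66e-05, and -6.87 to -5.17 with 1 library left out). Tpm2 had 2789 and 2823, against 698 and 952 (log2 fold change 1.78 ± 0.35, adjusted p = 0.00516).

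Of 18 tested FGF and MAPK feedback genes 7 were higher and 3 lower, against 9.46% and 12.3% of all genes tested, and 5 were higher without either G34W K27R library. Dusp6, a phosphatase of ERK, had 2467 and 2604 expected counts in G34W K27R, against 429.8 and 452 in G34W (log2 fold change 2.52 ± 0.30, adjusted p = 0.000202). The ETS factor Etv1 had 522 and 496, against 46.9 and 48.1 (log2 fold change 3.39 ± 0.24, adjusted p = 9.74e-06). Fosl1, an AP-1 subunit, had 1176 and 1298, against 14.7 and 67.9 (log2 fold change 5.23 ± 0.80, adjusted p = 0.00112, and 4.17 to 6.30 with 1 library left out). Of 37 tested Wnt genes 12 were lower and 3 higher, against 12.3% and 9.46% of all genes tested. Only 32 of the 37 reached a mean of 10 in G34W K27R, and 9 of these were lower. With close pairs counted as 1 sample 1 was lower. The ligand Wnt6 had 2.22 and 1.95, against 139.8 and 63.4, a fall by a ratio of 50.4 with a 95% counting interval of 19.4 to 187. In the Hedgehog pathway the target and effector Gli1 had 1.11 and 3.89, against 79.8 and 573, and Gli2 had 232 and 229, against 837 and 629.8 (log2 fold change -1.65 ± 0.26, adjusted p = 0.00147). Of the TGF-beta and BMP genes 5 of 30 were higher and 8 lower, against 9.46% and 12.3% of all genes tested, but without replicate 1 or 2 of G34W K27R 1 was higher and 5 or 3 were lower, which is near or below those shares. Single genes called were the ligand Gdf6, at 421 and 449.5 against 8.45 and 17.5 (log2 fold change 5.04 ± 0.55, adjusted p = 0.000119) and the antagonist Nog, at 11.1 and 15.6 against 136 and 247 (log2 fold change -3.71 ± 0.69, adjusted p = 0.00357).

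Several of the 15 largest decreases by the naming rule belonged to none of these groups. Megf6 had 0 in both G34W K27R libraries and 130.5 and 164 in the G34W libraries, so that it was at least 47.2-fold lower against a floor of 3 reads per library. Fxyd6, a regulator of the sodium pump, had 9.98 and 12.6 expected counts in G34W K27R, against 995 and 3440 in G34W, the largest fitted fall among them (log2 fold change -7.24 ± 1.03, adjusted p = 0.000726, and -8.13 to -6.35 with 1 library left out). Igfbp2, which binds insulin-like growth factors, had 8.87 and 7.78, against 341 and 569.7 (log2 fold change -5.57 ± 0.45, adjusted p = 2.08e-05). Lamb3, a laminin chain of epithelial basement membranes, had 46.6 and 28.2, against 739 and 3459 (log2 fold change -5.42 ± 0.55, and -6.54 to -4.31 with 1 library left out). For Scg2, a secretory granule protein, the G34W libraries themselves were far apart: it had 14.4 and 14.6 in G34W K27R, against 8393 and 272 in G34W, and its log2 fold change of -6.61 ± 1.19 lay between -9.08 and -4.14 with 1 library left out. Wfdc12, Serpina1e, Panx3, Btn1a1, Susd5 and Enpp6 fell as well, with log2 fold changes between -6.53 and -5.29. The fold moved by over 1.5 times for Wfdc12 without either G34W K27R library, and for Serpina1e, Btn1a1 and Susd5 without either G34W library. Mal was called with an adjusted p of 0.0167 that was 0.121 without G34W K27R replicate 2 and above the threshold without replicate 1 too.

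Set beside the other groups of the series, the levels in G34W K27R were extreme for interferon-stimulated and division genes. Centred per gene over the 16 libraries, the median log2 level of the interferon-stimulated list was 4.90 and 4.85 in the G34W K27R libraries, 1.74 and 1.97 in K27R, -1.50 and -0.78 in G34W, and -0.59 and -0.65 in wild-type H3.3. It was 1.45 and 1.53 in H3.3 G34R, -1.004 and -1.001 in G34W K36R, -2.84 and -1.04 in H3.1 G34W, and -2.92 and -2.83 in wild-type H3.1. K27R alone and G34R, which carries no K27R, thus both lay above wild-type H3.3 for this list. The median of the G2/M list was -3.48 in each G34W K27R library, 0.30 and 0.32 in K27R, -0.11 and 0.94 in G34W, and 0.35 and 0.36 in wild-type H3.3. The cholesterol list had medians of -1.40 and -1.31 in G34W K27R and 0.23 and 0.22 in K27R, against -0.21 and 0.51 in G34W and -0.77 and -0.74 in wild-type H3.3. Its level in K27R was thus on the other side of wild-type H3.3 from its level in G34W K27R.

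**Figure D4:**
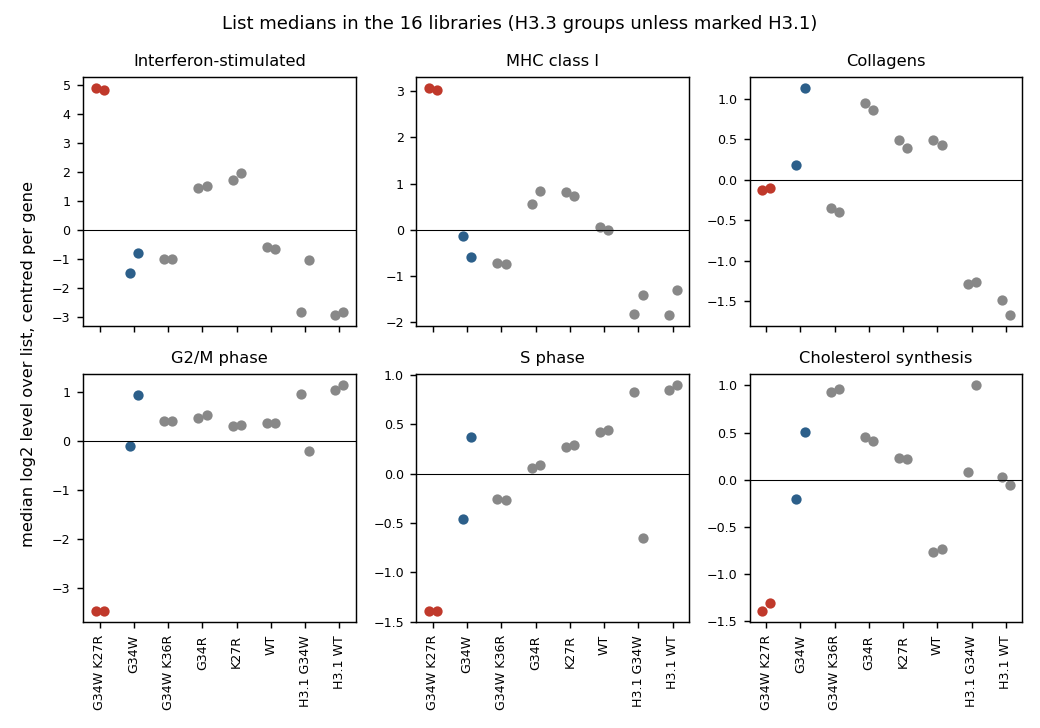
Median log2 level of 6 gene lists, centred per gene over the 16 libraries (vertical axes), in each library of the 8 groups; red marks H3.3 G34W K27R and blue H3.3 G34W. The G34W K27R libraries are the highest of all for interferon-stimulated and MHC class I genes and the lowest for G2/M, S phase and cholesterol genes.

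Whether K27R acted alike on the G34W tail and on the wild-type tail was tested as the difference between G34W K27R minus G34W and K27R minus wild-type H3.3. This difference was called for 984 of the 12673 genes (7.76%), above 0 for 343 (2.71%) and below 0 for 641 (5.06%). Counting each close pair as 1 sample left 3. The number was 461 and 494 without replicate 1 or 2 of G34W K27R, 448 and 469 without those of K27R, 2080 and 1590 without those of G34W, 1662 and 1669 without those of H3.1 G34W, and 1483 without either library of wild-type H3.1. All 32 G2/M genes differed, with falls on the G34W tail and a median log2 difference of -0.12 on the wild-type tail. For Ccnb2 the difference was -4.24 ± 0.46 (adjusted p = 0.000789), with 2076 and 2085 expected counts in K27R and 2452 on average in wild-type H3.3. Of the 24 cholesterol genes 18 differed downward; Idi1 had 9063 and 9570 in K27R and 4468 in wild-type H3.3, and a difference of -3.55 ± 0.47 (adjusted p = 0.00191). Interferon-stimulated genes had a median log2 difference of 2.45 on the wild-type tail, a comparison that was not itself tested. Of the 52, 23 differed between tails, with a larger rise on the G34W tail. Mx1, with 428 and 433 in K27R and 10.5 in wild-type H3.3, was not among them (difference 1.60 ± 0.73, adjusted p = 0.237). Ifit3, another antiviral protein gene, differed (3.74 ± 0.61, adjusted p = 0.00512).

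The differences of single genes were largest where the directions were opposed. Serpina3f had 32.3 and 47.5 expected counts in K27R and 869.8 in wild-type H3.3, and its difference was 11.08 ± 0.59 (adjusted p = 2.17e-05). Ccl2 had 1084 and 1094 in K27R and 7077 in wild-type H3.3, with a difference of 9.37 ± 0.59 (adjusted p = 5.27e-05). Igfbp2 went the other way, at 1473 and 1341 in K27R and 17.9 in wild-type H3.3, with a difference of -11.78 ± 0.71 (adjusted p = 4.63e-05). For Cdkn2a and Cdkn2b the rise on the G34W tail was smaller than on the wild-type tail, where the reference was at or near 0 (differences -2.44 ± 0.49 and -3.28 ± 0.75, adjusted p = 0.0136 and 0.0253).

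**Figure D5:**
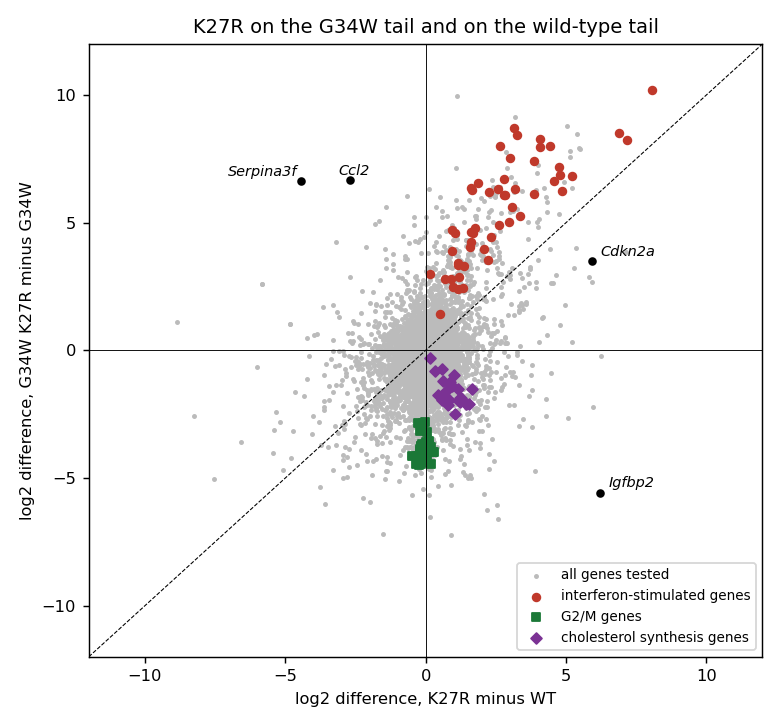
Log2 difference of H3.3 G34W K27R minus H3.3 G34W (vertical axis) against that of H3.3 K27R minus wild-type H3.3 (horizontal axis) for the 12673 genes tested; the dashed line marks equal differences. Interferon-stimulated genes (red) are raised on both axes, and G2/M genes (green) are low on the vertical axis with values near 0 on the horizontal axis.

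A second arginine change on the G34W tail, K36R, gave a different transcriptome. G34W K27R differed from G34W K36R in 4685 genes (37% of those tested), 2419 higher (19.1%) and 2266 lower (17.9%). Without replicate 1 or 2 of G34W K27R 2499 and 2423 were called, without replicate 1 or 2 of G34W K36R 2481 and 2458, and with close pairs counted as 1 sample 209. This comparison shares the G34W K27R libraries with the main one, so the 2 are not independent. Mx1 averaged 12.4 in G34W K36R and was 8.03 ± 0.46 higher in G34W K27R on the log2 scale (adjusted p = 2.48e-06), and Ccnb2 averaged 1707 and was -3.91 ± 0.29 apart (adjusted p = 1.05e-05). Eln, which averaged 69.8 in G34W K36R, was higher in G34W K27R by 7.14 ± 0.33 (adjusted p = 7.16e-07). The class I gene H2-Q9 had 912 and 1084 expected counts in G34W K27R and was listed at 0 in G34W K36R, and the histone gene Hist1h2ao had 3.46 and 5.89, against an average of 4733; both have near-identical copies, so their values are uncertain.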

How the data were processed

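RNA-seq of 16 libraries in 8 groups of 2 was deposited as 1 table for all genes. Per the submitters' processing notes, the authors estimated expected counts per gene with RSEM 1.2.4 on mm9; the deposited values are a signal that, judged from the values, holds these counts scaled by 1 constant per library (median normalisation, per the name of the deposited table). The aligner, annotation and filters are not given in the sources used here. Between 41.5% and 47.6% of values per library were whole reads (tolerance 0.01), so no count model was used.

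Genes averaging 10 or more over the 4 compared libraries entered limma 3.58.1 (R 4.3.3, statmod 1.5.0; trend and robust) on log2(value + 1), which understates the change of low genes. All 8 groups were fitted together, and the wild-type H3.3 libraries, which differed by less than the sampling noise over whole-read genes, were averaged to 1 sample, leaving 15 samples and 7 residual degrees of freedom. P-values were two-sided and adjusted by Benjamini-Hochberg over all 12673 genes, with a threshold of 0.05. The script was tested on simulated data.

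Named genes were the 15 largest called changes each way without overlap between libraries and with a mean of at least 50 in 1 group, up to 4 called members of each list, a few preset genes, and the 5 largest each way in the other contrasts. The members and the 40 lists were chosen with earlier results of these data known. Isg15, Ifit1, Ifit3, Irf7, Irf9, Ifih1, H2-K1, B2m, Cdc20, Mki67, Top2a, Comp, Col2a1, the interferon ligand and receptor genes and the promoters and motifs shown were chosen after their values were seen. Promoter sequences came from RefSeq on GRCm38.p6, matched by symbol for 10086 of 12673 genes; no deposited coordinate was used. Bounds against 0 used 3 reads per library, and counting intervals (95%) cover counting error only. Alternatives covered pseudocounts of 0.5 and 5, other filters and scalings, fewer groups, close pairs as 1 sample, a replicate block and each library left out. A few named genes are not reported here.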

Additional observations from a re-analysis of the deposited data

Results flagged for a closer look

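In 984 genes the change from G34W to G34W K27R differed from that from wild-type H3.3 to K27R, by the test of the difference itself. Nearly all of these calls were lost with each close pair of libraries counted as 1 sample. The largest positive differences under the naming rule were those of Serpina3f (11.08), Ccl2 (9.37), Ccl7 (7.04), Prl2c3 (6.73) and Sprr1a (6.71), on the log2 scale. Prl2c3, a proliferin gene, had 28.2 and 31 expected counts in G34W K27R, against 0 in both G34W libraries, and 14.9 and 22.2 in K27R, against 65.7 on average in wild-type H3.3. With 0 in G34W, the size and rank of its difference depend on the 1 added to each value before the log. The gene also has near-identical copies. Sprr1a, a gene of the cornified envelope, had 330.2 and 308 in G34W K27R, against 0.939 and 10.9 in G34W.

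The largest negative differences were those of Igfbp2 (-11.78), Scg2 (-9.19), Lcp1 (-8.60), Gli1 (-8.60) and Serpina1e (-8.45). All 5 were lower in G34W K27R than in G34W, and had higher values in K27R than in wild-type H3.3, which was not tested by itself. Lcp1, an actin-bundling protein of leukocytes, had 6.65 and 6.81 expected counts in G34W K27R, against 133 and 306 in G34W, and 371 and 403 in K27R, against 25.2 in wild-type H3.3. Gli1 had 669.8 and 637 in K27R, against 112 in wild-type H3.3, and Serpina1e had 458 and 438, against 97.6. The leukocyte marker Ptprc was at 0 in all 4 libraries of G34W K27R and G34W. Those of K27R, where Lcp1 was higher, are not among these 4.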

How the results depend on the processing

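The count of genes called in G34W K27R against G34W was 2759. It was 890 with only these groups fitted, 343 with close pairs as 1 sample and 1323 to 3524 with 1 library left out in turn. The difference between tails, 984 genes, became 1938 with the wild-type libraries counted separately, 3 with close pairs as 1 sample and 448 to 2080 with 1 library left out. Under quantile normalisation it was 1268, of which 45.9% were positive, against 34.9% of the 984. The 4685 genes called against G34W K36R became 10170 with only those groups fitted, 209 with close pairs as 1 sample and 2423 to 5760 with 1 library left out. The cause was not tested.

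Without G34W replicate 2 the sign turned for 6 genes that were not called with all libraries. With 1 library left out in turn their log2 fold changes lay between -0.99 and 1.57 for Igf2, -1.62 and 7.26 for Adipoq, -0.35 and 0.11 for Sox9, -3.70 and 0.29 for Col2a1, -0.011 and 0.066 for Ifnar1, and -0.36 and 6.26 for Fabp4. Replicate numbers did not pair libraries: correlations of replicate differences between groups lay between -0.267 and 0.0552 over 28 pairs of groups. With the replicate block 2565, 831 and 4377 genes were called in the 3 comparisons.

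Pseudocounts, filters, rescaling by trimmed mean and limma without trend moved none of these 3 totals by over 1.5 times. Among list counts, lower Polycomb-target factors became 3 and lower histone genes 4 with a minimum mean of 50, and higher TGF-beta and BMP genes became 3 without a filter and 3 without trend. With 2 libraries a group, of which 5 pairs differ little beyond counting error, the spread between independent cultures may be larger than the tests assume.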

Other observations

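Of 58 tested cytosolic ribosomal protein genes 0 were called by limma, with 0 at an unadjusted p under 0.05 and a median log2 fold change of 0.12. Of 54 tested genes of oxidative phosphorylation 3 were lower, Atp5a1, Ndufs1 and Sdha, against 12.3% of all genes tested, with a median of -0.08; without either G34W K27R library all 3 calls were lost (adjusted p up to 0.141, 0.11 and 0.256), that of Sdha also without 7 other libraries. Among 29 genes of the integrated stress and unfolded protein responses 4 were higher and 1 lower, against 9.46% and 12.3% of all genes tested. Their median log2 fold change was 0.16. In both G34W K27R libraries 8 lay above all 14 other libraries (27.6%, against 9.8% of all genes tested). Another 3 lay below all of them (10.3%, against 10.6%). Ddit3, the stress factor CHOP, had 6499 and 6428 expected counts in G34W K27R, against 1573 and 1792 in G34W (log2 fold change 1.94 ± 0.30, adjusted p = 0.00111), and 5450 and 5372 in K27R, against 2213 on average in wild-type H3.3. The endoplasmic reticulum chaperone gene Hsp90b1 had 85502 and 81061, against 30579 and 50467 (log2 fold change 1.08 ± 0.21, adjusted p = 0.00502).

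Of 30 tested glycolytic and hypoxia genes 4 were higher and 8 lower, against 9.46% and 12.3% of all genes tested. Their median log2 fold change was -0.38. Fewer were lower without either G34W K27R library. The vasodilator peptide gene Adm had 6036 and 6245 expected counts in G34W K27R, against 1421 and 995 in G34W (log2 fold change 2.37 ± 0.25, adjusted p = 9.91e-05), and hexokinase Hk2 had 1176 and 1144, against 300.3 and 531 (log2 fold change 1.53 ± 0.28, adjusted p = 0.0032), while the glucose transporter gene Slc2a1 had 1725 in each G34W K27R library, against 2734 and 3687 (log2 fold change -0.88 ± 0.17, adjusted p = 0.00507). In the IGF axis the RNA-binding protein gene Igf2bp2 had 3500 and 3411, against 625 and 715 (log2 fold change 2.37 ± 0.14, adjusted p = 2.92e-06), and the growth factor Igf1 had 1450 and 1519, against 11137 and 4154 (log2 fold change -2.20 ± 0.45, adjusted p = 0.0061). Among adhesion genes the integrin chain Itgb4 had 145 and 187, against 2070 and 1959 (log2 fold change -3.60 ± 0.29, adjusted p = 2.13e-05).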
